A study of Mus musculus with 24 samples.

Results

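Myc and 9 genes of nucleolar ribosome biogenesis were followed through sorted myeloid-derived suppressor cells (MDSCs) of the mouse spleen. The 10 genes (Myc, Ncl, Npm1, Fbl, Nop56, Nop58, Nolc1, Polr1b, Rrp9 and Wdr43) were taken by symbol from a table of 23479 genes. They were chosen with earlier results of these data known, and were described in all 8 groups of the study. Myc fell to 18.01 ± 7.38 normalized counts in PMN-MDSCs of lymphodepleted, KO-labelled mice, against 108 ± 35.9 in untreated KO-labelled PMN-MDSCs (SD, n = 3 each). In that comparison all 10 genes lay below 0 (median log2 -0.78, against -0.07 over all genes), but Myc was the only member that passed the test.

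MYC is a transcription factor that pairs with MAX and binds E-box sequences (CACGTG). It is known for raising ribosome production and cell growth, in part through genes that act in the nucleolus. There, RNA polymerase I transcribes ribosomal DNA, small nucleolar ribonucleoproteins (snoRNPs) modify and guide the precursor RNA, and assembly factors build the ribosomal subunits. Myeloid precursors make ribosomes actively while they divide, and mature neutrophils do so little. MDSCs accumulate in hosts with a tumour and dampen T cell responses. The sorted cells were of the monocytic (M-MDSC) or the polymorphonuclear kind (PMN-MDSC).

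Promoter sequences of 7 members were found in the RefSeq table (GRCm38.p6): Ncl, Nop56, Nop58, Nolc1, Polr1b, Rrp9 and Wdr43. The window around each gene start, from 250 bases before to 50 after, was searched on both strands for the E-box CACGTG and for the variant CACGCG, which do not overlap here. Gene starts are those of the promoter table, which for Wdr43 is 71616215, 37 bases downstream of the start in its RefSeq gene record. CACGTG stood in 1 of the 7 (Wdr43, starting at base 18, with the start as base 1), and in 7.15% of all 32851 promoters of this length. CACGCG stood in 1 of the 7 (Nolc1, read as CGCGTG, starting at -25), and in 9.27% of all promoters. The 7 windows held 13 to 33 CpG dinucleotides, with a median of 22, against a median of 7 over all promoters. The 2 promoters with a match are shown with that of Ncl, the member with the most reads, which had none. Each run goes 5′ to 3′ on the gene's own strand over 280 bases, from 250 before the gene start to 30 after it, in lower case with the match in capitals. They lie at chr17:71615965-71616244 on the plus strand (Wdr43), chr19:46075597-46075876 on the plus strand (Nolc1) and chr1:86359426-86359705 on the minus strand (Ncl).
Wdr43: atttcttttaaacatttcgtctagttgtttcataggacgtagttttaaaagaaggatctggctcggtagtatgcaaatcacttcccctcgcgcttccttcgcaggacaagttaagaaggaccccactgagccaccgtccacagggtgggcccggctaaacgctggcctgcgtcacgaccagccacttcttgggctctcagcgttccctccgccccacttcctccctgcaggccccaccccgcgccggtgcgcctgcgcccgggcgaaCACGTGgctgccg
Nolc1: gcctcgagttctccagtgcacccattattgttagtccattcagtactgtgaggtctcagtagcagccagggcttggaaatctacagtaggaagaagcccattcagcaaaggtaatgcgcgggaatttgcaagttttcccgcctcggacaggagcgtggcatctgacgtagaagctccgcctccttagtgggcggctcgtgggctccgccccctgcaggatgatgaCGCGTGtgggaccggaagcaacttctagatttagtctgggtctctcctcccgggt
Ncl: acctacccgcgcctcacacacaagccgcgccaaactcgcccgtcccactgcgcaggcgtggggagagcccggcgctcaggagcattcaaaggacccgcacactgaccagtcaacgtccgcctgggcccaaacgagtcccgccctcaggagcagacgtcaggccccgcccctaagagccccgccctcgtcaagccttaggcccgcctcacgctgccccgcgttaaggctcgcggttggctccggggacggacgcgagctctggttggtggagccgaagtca

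The libraries came from spleens of mice with B16 melanoma over 25 mm2, taken 7 days after lymphodepletion with cyclophosphamide and fludarabine (LD) or from untreated mice (UT). The genotype label was IL-6KO (B6.129S2-Il6tm1Kopf/J mice, KO here) or WT (C57BL/6 mice), and M-MDSCs and PMN-MDSCs were sorted by flow cytometry to over 99% purity. The 8 groups of 3 libraries were KO LD M, KO UT M, WT LD M, WT UT M, KO LD PMN, KO UT PMN, WT LD PMN and WT UT PMN. All groups carried tumours, and neither tumour-free mice nor the age of the mice are given in the labels. The design text gives 3 mice for the groups other than lymphodepleted KO, for which no number was found, so p-values there may measure technical spread only.

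The targeted gene went against the labels. Il6 had 39.0, 16.2 and 45.3 normalized counts in KO LD M, 41.2, 38.3 and 33.3 in KO UT M, 131, 64.5 and 203 in KO LD PMN, and 158, 153 and 220 in KO UT PMN. It had at most 3.87 in the 6 WT M libraries and at most 7.20 in the 6 WT PMN libraries. A gene-level count cannot tell a disrupted Il6 transcript from an intact one, so it does not check the allele. Directions between genotypes are therefore directions between labels. M libraries held 7237462 to 11193088 reads and PMN libraries 3249647 to 9999731. The ribosomal RNA precursor gene Rn45s took 6.07% to 19.8% of the reads in M and 2.94% to 18.05% in PMN. All 6 monocytic markers were detected in every group and summed to 16786 to 27904 in M against 2136 to 5443 in PMN libraries. The 6 granulocytic markers analysed (of 7 listed, Ly6g not among them) summed to 82197 to 149000 in PMN, and to 2751 to 21820 in M libraries. In sorted bulk samples, fewer cells of a type and less RNA per cell cannot be told apart.

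The members spanned a wide range of abundance. As reads per coding kilobase scaled to the library total (RPKM), averaged over the 4 groups of a cell type, nucleolin (Ncl) stood at 371 in M and 176 in PMN. Nucleophosmin (Npm1) stood at 363 in M and 81.0 in PMN. At the low end Polr1b, a core subunit of RNA polymerase I, stood at 4.60 in M and 1.33 in PMN. Myc ranked 8 of 10 in M (13.8) and in PMN (5.97), above Rrp9 and Polr1b. Fbl ranked 3 in M at 60.9, and 6 in PMN at 9.01. These ranks rest on coding length, which leaves out untranslated exons. The merged exons of Fbl span 4.21 kb against 0.981 coding, and those of Myc 2.72 against 1.36. Ranks by merged exon length were not computed. Npm1 and Fbl have related sequences elsewhere in the mouse genome, so their reads may be shared with those copies.

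**Figure D1:**
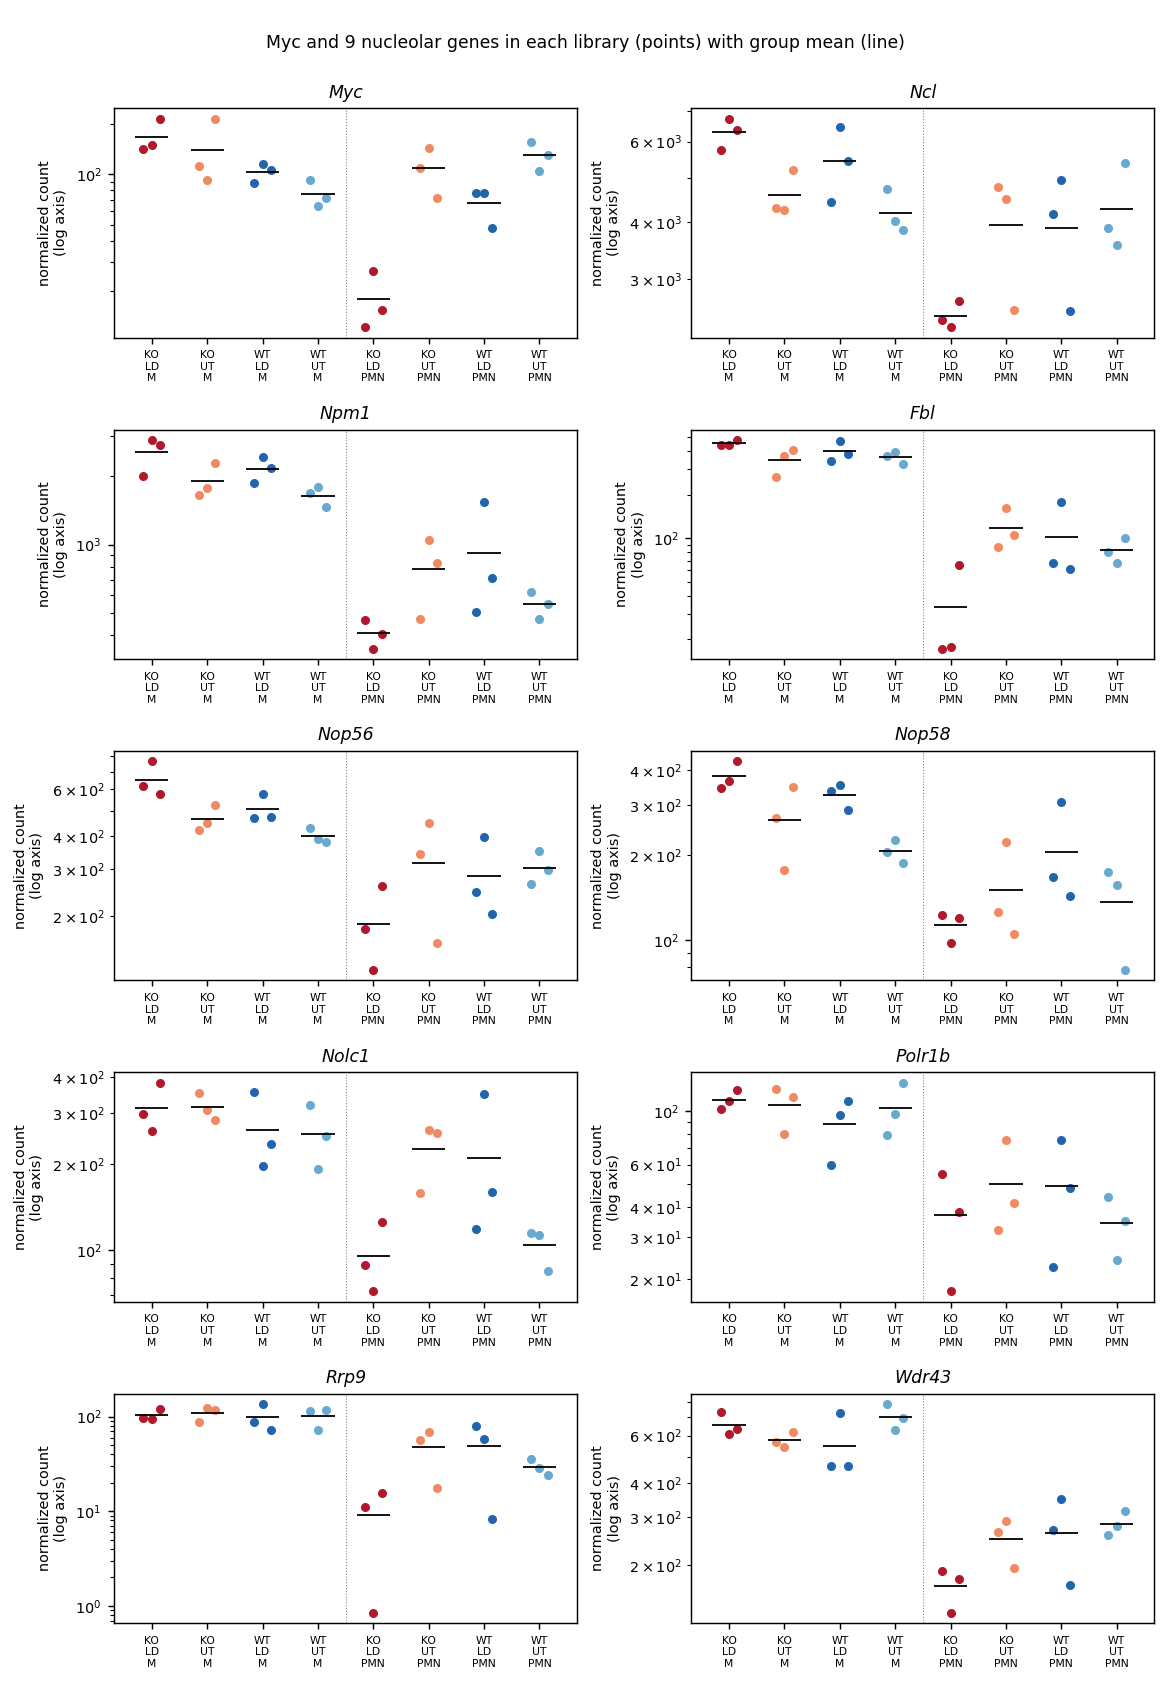
Normalized counts (log axis) of the 10 genes in every library (points) with the group mean (line); x-axis labels give genotype label, treatment and cell type, with M groups left of the dotted line. The 3 KO LD PMN libraries had 12.2 to 26.3 counts of Myc, below the 9 other PMN libraries (47.8 to 157).

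Myc was highest in KO LD M-MDSCs and lowest in KO LD PMN-MDSCs. Its mean normalized count was 168 ± 39.1 in KO LD M, 139 ± 65.4 in KO UT M, 131 ± 26.1 in WT UT PMN, and 108 ± 35.9 in KO UT PMN (SD, n = 3 each). It was 103 ± 13.4 in WT LD M, 76.4 ± 14.4 in WT UT M, 67.3 ± 16.9 in WT LD PMN and 18.01 ± 7.38 in KO LD PMN (SD, n = 3 each). In that order each group overlapped the next, except for the last step, where WT LD PMN and KO LD PMN did not overlap.

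Lymphodepletion in KO-labelled PMN-MDSCs went with low Myc in each library. Myc had 12.2, 26.3 and 15.5 normalized counts in KO LD PMN, against 109, 144 and 72.2 in KO UT PMN. The groups did not overlap. The log2 fold change was -2.54 ± 0.46 (SE), which is 5.81-fold lower on the log2(count + 1) scale, with an adjusted p of 0.0312 by limma with Benjamini-Hochberg adjustment over 12971 genes. Across all genes in this comparison 29 were called, all lower, which is 0.224%, and none was called higher. The estimate kept its size without any 1 library (-2.83 to -2.31). The call was kept in 2 of the 6 such fits, with adjusted p from 0.0406 to 0.250, and was lost without KO LD PMN libraries 1 or 3 and without KO UT PMN libraries 1 or 2.

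Of the 5 members that act on pre-rRNA through snoRNPs, none passed the test, and 3 did not overlap between the groups. Fibrillarin (Fbl), the methyltransferase of box C/D snoRNPs, had 17.3, 17.8 and 65.0 normalized counts in KO LD PMN, against 86.5, 162 and 105 in KO UT PMN. Rrp9, a protein specific to the U3 snoRNP, had 11.2, 0.849 (1 read) and 15.5 in KO LD PMN, against 56.9, 69.5 and 17.8 in KO UT PMN. Nolc1, a chaperone of snoRNPs, had 88.7, 72.2 and 126 in KO LD PMN, against 158, 263 and 255 in KO UT PMN. The groups did not overlap for these 3 genes. Their log2 fold changes were -2.02 ± 0.56 for Fbl (adjusted p = 0.178, limma), -2.56 ± 0.96 for Rrp9 (adjusted p = 0.349) and -1.23 ± 0.40 for Nolc1 (adjusted p = 0.254). The 2 other box C/D core proteins overlapped between the groups. Nop56 had 126 to 259 counts in KO LD PMN and 158 to 449 in KO UT PMN, and Nop58 97.6 to 122 in KO LD PMN and 105 to 222 in KO UT PMN.

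Among the other members none passed the test. Npm1, a chaperone of ribosome assembly, had 467, 349 and 404 normalized counts in KO LD PMN, against 470, 1043 and 826 in KO UT PMN, without overlap (log2 -0.87 ± 0.35, adjusted p = 0.398, limma). Wdr43, homologous to a yeast small subunit processome protein, had 190, 133 and 178 in KO LD PMN, against 265, 290 and 195 in KO UT PMN, without overlap (log2 -0.58 ± 0.30, adjusted p = 0.543). Ncl, which binds ribosomal chromatin and pre-rRNA, had 2358 to 2689 in KO LD PMN and 2568 to 4765 in KO UT PMN, with overlap. Polr1b had 17.8 to 55.0 in KO LD PMN and 32.1 to 75.5 in KO UT PMN, also with overlap. Over all 10 members the median log2 fold change was -0.78, against -0.07 over all genes tested. In 6 of the 10, all KO LD libraries lay below all KO UT libraries, and 9.81% of all genes did so. The 95% intervals of Nop56 (-1.49 to 0.12), Nop58 (-1.20 to 0.51), Polr1b (-1.79 to 0.87) and Wdr43 (-1.21 to 0.055) include 0, and the other 6 members had an unadjusted p under 0.05. Over all 12971 genes, 1321 had an unadjusted p under 0.05.

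KO LD PMN held the lowest of the 8 group means for 9 members; for Polr1b the lowest mean was in WT UT PMN. Only for Myc and Npm1 were all 3 KO LD PMN libraries below all 9 other PMN libraries. The share of all genes with either pattern was not computed, so these counts have no background beside them. Npm1 had 349 to 467 counts in KO LD PMN and 470 to 1540 in the 9 others.

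**Figure D2:**
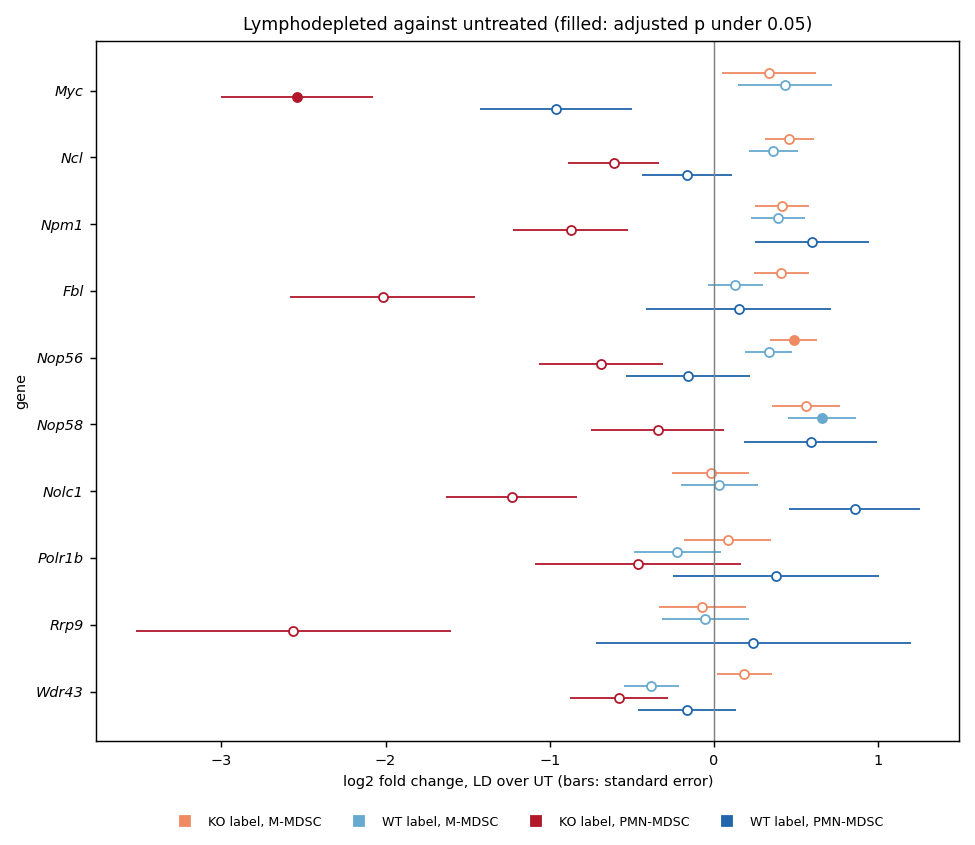
Log2 fold change of lymphodepleted over untreated libraries (points) with its standard error (bars) for the 10 genes, in each genotype label and cell type; filled points passed an adjusted p of 0.05. In KO-labelled PMN-MDSCs all 10 points lie left of 0 and Myc (-2.54) is filled; in M-MDSCs the filled points are Nop56 (KO label, 0.48) and Nop58 (WT label, 0.66).

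Levels of other cells' markers also differed between these groups. All 6 B cell markers were detected in every PMN group, and they summed to 125, 46.7 and 77.4 normalized counts in KO LD PMN, against 1266, 1549 and 721 in KO UT PMN. Of the 6, 2 fell past the threshold by limma, edgeR called 3 and DESeq2 5, and all 6 had an unadjusted p under 0.05. The B cell markers summed to 122, 120 and 34.9 in WT LD PMN, against 988, 854 and 884 in WT UT PMN. Limma called all 6 in that comparison. The 29 called genes included the B cell genes Cd22, Ebf1, Cr2, Blk and Fcer2a, examples chosen after their values were seen. Ebf1, a B cell transcription factor, fell by 3.95 ± 0.66 on the log2 scale (adjusted p = 0.0193, limma). The 6 NK cell markers, all detected, summed to 238 to 399 in KO LD PMN and 448 to 1607 in KO UT PMN. The 6 T cell markers, all detected in these groups, summed to 114 to 148 in KO LD PMN and 223 to 433 in KO UT PMN. No NK or T cell marker was called by limma or edgeR; DESeq2 called 2 and 1, and 4 and 3 had an unadjusted p under 0.05. The 7 cell cycle markers, all detected, summed to 3734, 14118 and 3637 in KO LD PMN against 579, 2575 and 4025 in KO UT PMN, with overlap. Total reads were 8801766 to 9999731 in KO LD PMN and 4874429 to 8990300 in KO UT PMN. The part of these cells and of depth in the Myc value was not tested. Leaving out the 3 PMN libraries with the fewest reads, a choice made after seeing the data, left Myc at -2.51 with an adjusted p of 0.213 and no gene called by limma.

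**Figure D3:**
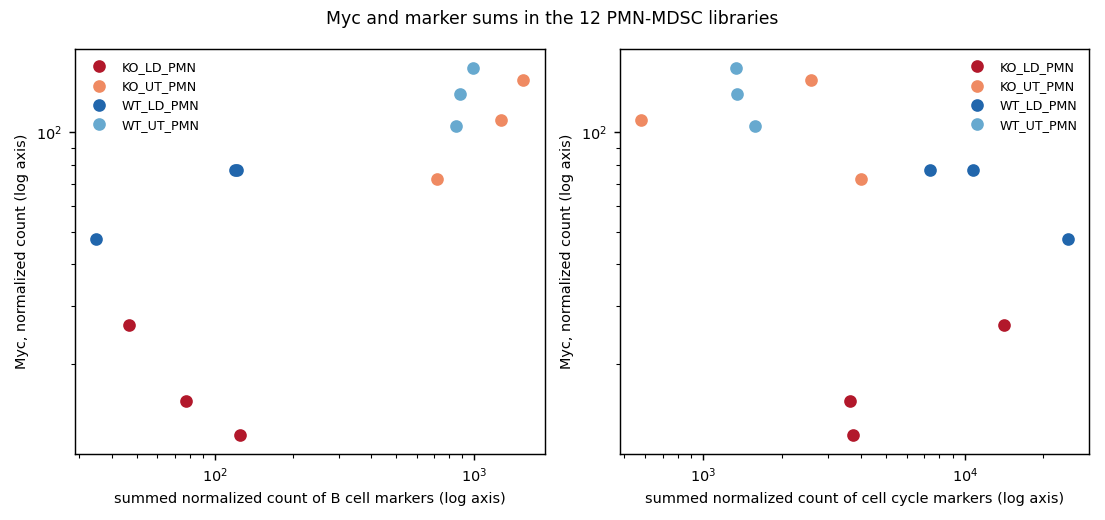
Myc (y, normalized count, log axis) against the summed normalized count of 6 B cell markers (left) and 7 cell cycle markers (right) on log axes, 1 point for each of the 12 PMN-MDSC libraries. B cell marker sums were 46.7 to 125 in KO LD, 34.9 to 122 in WT LD, 721 to 1549 in KO UT and 854 to 988 in WT UT. Myc was 12.2 to 26.3 in KO LD, 47.8 to 77.0 in WT LD, 72.2 to 144 in KO UT and 104 to 157 in WT UT. The relation of Myc to these sums was not tested.

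In WT-labelled PMN-MDSCs the members did not move one way. Myc had 77.0, 77.0 and 47.8 normalized counts in WT LD PMN, against 157, 104 and 131 in WT UT PMN. The groups did not overlap, which held for 20.9% of all genes in this direction, but the log2 fold change of -0.96 ± 0.46 did not pass the test (95% interval -1.94 to 0.024, adjusted p = 0.182, limma). Nolc1 had 119, 349 and 160 in WT LD PMN, against 115, 113 and 84.9 in WT UT PMN, also without overlap, as for 12% of all genes in that direction (log2 0.86 ± 0.40, adjusted p = 0.168). Rrp9 ranged from 8.27 to 80.3 in WT LD PMN and from 23.9 to 35.5 in WT UT PMN. None of the 10 was called by limma, edgeR or DESeq2, and 1 had an unadjusted p under 0.05, as had 3776 of all 12971 genes. Of all genes 10.9% were called in this comparison, and the median of all genes was itself -0.20.

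Between the labels, lymphodepleted PMN-MDSCs were compared first. All 10 members lay below 0 in KO LD against WT LD PMN, with a median of -0.89 against 0.04 over all genes. For Myc the log2 fold change was -1.88 ± 0.46 (adjusted p = 0.353, limma). Myc, Npm1 and Nop58 did not overlap between these groups: Nop58 had 97.6 to 122 in KO LD PMN and 143 to 307 in WT LD PMN. That is 3 of 10 members, and 4.90% of all genes did so. No member was called by limma or edgeR, and DESeq2 called Myc (adjusted p = 0.0399). Of all 12971 genes limma called 0.0154%, which is 2 genes, and DESeq2 called 46. An unadjusted p under 0.05 was found for 6 members and for 1077 of all genes. The 7 progenitor and primary granule markers summed to 432 to 1235 in KO LD PMN and 1419 to 2685 in WT LD PMN. Limma called none of the 7, edgeR 1 and DESeq2 2, and 5 had an unadjusted p under 0.05. The 6 NK cell markers summed to 238 to 399 in KO LD PMN and 61.0 to 182 in WT LD PMN. None of the 6 was called by the 3 tools, and 3 had an unadjusted p under 0.05. The part of these cells in the member values was not tested. In untreated PMN-MDSCs no member was called by any of the 3 tools. There 468 of all 12971 genes had an unadjusted p under 0.05, and 1 member did. That was Nolc1, at 158 to 263 in KO UT PMN and 84.9 to 115 in WT UT PMN (log2 1.08 ± 0.40, adjusted p = 0.933, limma), where 0.00771% of all genes were called and 6.21% were higher without overlap. The difference of the lymphodepletion effects between the labels was below 0 for all 10 members (median -1.20, against 0.10 over all genes). None of the 10 was called by the 3 tools, and 4 had an unadjusted p under 0.05, as had 1108 of all 12971 genes. Limma called 0% of all genes, and its adjusted p of Myc was 0.576 (log2 -1.58 ± 0.66, 95% interval -2.97 to -0.19). These comparisons share libraries, so their values are not separate evidence.

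In M-MDSCs the change of Myc with lymphodepletion was not called under either label. Myc had 141, 150 and 212 normalized counts in KO LD M, against 112, 92.5 and 214 in KO UT M, and 88.2, 115 and 106 in WT LD M, against 92.6, 64.9 and 71.7 in WT UT M. Both pairs overlapped. The log2 fold changes were 0.34 ± 0.29 (95% interval -0.28 to 0.95) under the KO label and 0.43 ± 0.29 (-0.18 to 1.05) under the WT label. Without 1 library they ran from 0.09 to 0.69 under KO and from 0.32 to 0.58 under WT. Myc was called in none of these fits. Mki67, a marker of dividing cells, rose by 2.87 ± 0.59 under the KO label (adjusted p = 0.00777, limma) and by 4.57 ± 0.59 under the WT label (adjusted p = 0.000201).

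In each label 1 member passed, and they were different core proteins of the box C/D snoRNP. Nop56 had 616, 765 and 576 normalized counts in KO LD M, against 422, 449 and 523 in KO UT M, without overlap (log2 0.48 ± 0.14, adjusted p = 0.0403, limma). Nop58 had 337, 354 and 288 in WT LD M, against 205, 226 and 187 in WT UT M, without overlap (log2 0.66 ± 0.21, adjusted p = 0.0397). In the other label Nop58 was 345 to 429 in KO LD M and 178 to 349 in KO UT M (adjusted p = 0.0971), and Nop56 was 469 to 578 in WT LD M and 380 to 431 in WT UT M (adjusted p = 0.119). The calls were fragile: without 1 library, Nop56 stayed called in 2 of 6 fits and Nop58 in 0 of 6. Without KO UT M library 3, 4 members were called higher under the KO label (Ncl, Nop56, Nop58 and Npm1). Calls higher made up 6.11% of all genes under the KO label and 9.52% under the WT label, so 1 of 10 is near the background in each. Ncl, at 5740 to 6730 in KO LD M against 4251 to 5188 in KO UT M, did not overlap (log2 0.46 ± 0.15, adjusted p = 0.0649). In 3 of the 10 members under each label all LD libraries lay above all UT libraries, against 13.7% of all genes under KO and 16.9% under WT. The 6 granulocytic markers in M, of which 2 rose past the threshold under KO and 3 under WT, summed to 4615 to 9903 in KO LD M against 2751 to 2983 in KO UT M, and to 5868 to 21820 in WT LD M against 3226 to 3505 in WT UT M. Progenitor and primary granule markers (7 of 7 detected) summed to 5882 to 14219 in KO LD M against 360 to 8307 in KO UT M, and to 4866 to 15801 in WT LD M against 137 to 212 in WT UT M. Other markers were lower. The 6 NK cell markers, of which 6 fell past the threshold under KO and 5 under WT, summed to 453 to 1139 in KO LD M against 5381 to 8031 in KO UT M, and to 234 to 423 in WT LD M against 1388 to 1619 in WT UT M. The 6 B cell markers, with the same counts of calls, summed to 66.4 to 92.3 in KO LD M against 573 to 940 in KO UT M, and to 34.8 to 68.8 in WT LD M against 279 to 345 in WT UT M. The part of these cells in the Nop56 and Nop58 values was not tested.

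Between the labels within M-MDSCs no member was called. In lymphodepleted M-MDSCs all 10 lay above 0 (median 0.26, against 0.01 over all genes). EdgeR and DESeq2 called none of them, and limma called 0.207% of all genes. An unadjusted p under 0.05 was found for 2 members and for 1081 of all 11570 genes. Myc had 141, 150 and 212 in KO LD M, against 88.2, 115 and 106 in WT LD M, without overlap, and the other 9 members overlapped. In untreated M-MDSCs edgeR and DESeq2 called no member, and limma called 4.03% of all genes. There 2563 of all 11570 genes had an unadjusted p under 0.05, and 1 member did. That member was Myc, at 112, 92.5 and 214 in KO UT M against 92.6, 64.9 and 71.7 in WT UT M, with overlap at 1 library of each (log2 0.78 ± 0.29, adjusted p = 0.136, limma). Wdr43 was lower without overlap, at 545 to 619 in KO UT M against 628 to 784 in WT UT M. For neither comparison is the share of all genes without overlap given here. Of the markers, limma called 6 of 6 of NK cells, 4 of 6 of T cells and 4 of 7 of progenitors and primary granules in this comparison. The KO UT M library with 214 counts of Myc had a progenitor sum of 8307 and a cell cycle sum of 7499, against 360 to 1524 and 1201 to 2623 in the other KO UT M libraries. The WT UT M libraries had 137 to 212 and 1098 to 1155. Their part in the Myc value was not tested. The genotype-by-treatment term in M-MDSCs called no member by the 3 tools, and limma called 0.00864% of all genes. For that term 1 member had an unadjusted p under 0.05, as had 1413 of all 11570 genes.

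M-MDSCs held more of most members than PMN-MDSCs. Npm1, Fbl and Wdr43 were called higher in M in each of the 4 pairs of groups, which share no library. Fbl had 443, 442 and 475 normalized counts in KO LD M, against 17.3, 17.8 and 65.0 in KO LD PMN. It had 369, 392 and 324 in WT UT M, against 80.7, 67.2 and 100 in WT UT PMN. The log2 difference was 4.0 ± 0.40 in KO LD (adjusted p = 3.18e-08, limma) and 2.13 ± 0.40 in WT UT (adjusted p = 0.00014). Npm1 had 2012 to 2885 in KO LD M and 349 to 467 in KO LD PMN (log2 2.64 ± 0.29, adjusted p = 1.4e-07), and 1459 to 1792 in WT UT M and 472 to 621 in WT UT PMN (log2 1.59 ± 0.29, adjusted p = 0.000106).

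In KO LD all 10 members were called higher in M, and none overlapped between the cell types. Of all genes 23.8% were called higher there, and 29.0% were higher without overlap. Myc differed by 3.19 ± 0.36 (adjusted p = 2.08e-07, limma) and Rrp9 by 3.86 ± 0.72 (adjusted p = 0.000123). The smallest difference was that of Ncl, 1.33 ± 0.23 (adjusted p = 5.8e-05). In the other pairs 5 members were called higher in KO UT, 4 in WT LD and 6 in WT UT, against 20.3%, 19.4% and 22.2% of all genes. None was called lower. Myc lay the other way in WT UT, with 92.6, 64.9 and 71.7 in WT UT M against 157, 104 and 131 in WT UT PMN. Those groups did not overlap, as for 35.2% of all genes in that direction, and the log2 difference was -0.76 ± 0.36 (adjusted p = 0.0855); with quantile normalization the adjusted p was 0.0333. Ncl in WT UT, at 3839 to 4728 in M and 3564 to 5378 in PMN, gave a main estimate near 0. Its sign changed with the scaling and with the libraries left out.

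**Figure D4:**
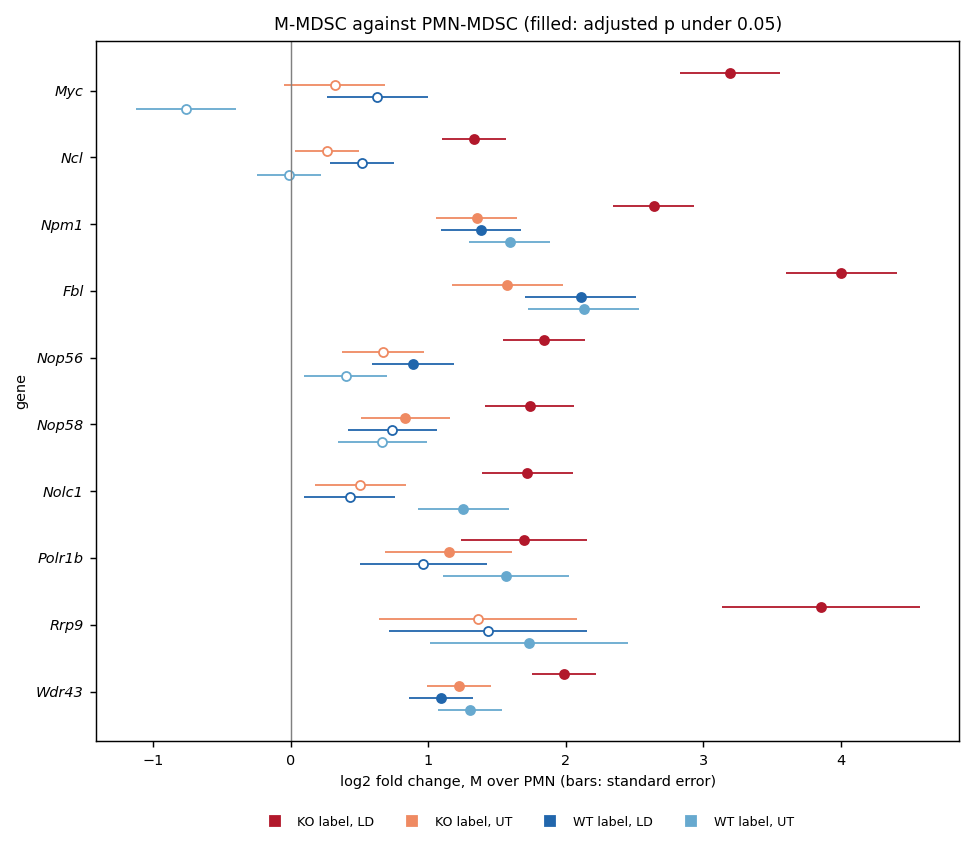
Log2 fold change of M-MDSC over PMN-MDSC libraries (points) with its standard error (bars) for the 10 genes in each genotype label and treatment; filled points passed an adjusted p of 0.05. All 10 points of KO LD are filled, from 1.33 for Ncl to 4.0 for Fbl, and Myc in WT UT lies left of 0 (-0.76).

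The lymphodepletion effect itself differed between the cell types for Myc under the KO label. The effect in M minus that in PMN was 2.87 ± 0.52 (adjusted p = 0.0326, limma on all 24 libraries), and it stayed called in 6 of 12 fits without 1 library. The call was lost without KO LD M libraries 2 or 3, KO UT M libraries 1 or 2, KO LD PMN library 1 or KO UT PMN library 2 (adjusted p 0.0503 to 0.124). All 10 members lay above 0 (median 1.19, against 0.06 over all genes). Of all genes 0.0372% were called higher. In order of p, Fbl came next, at 2.43 ± 0.57 (adjusted p = 0.131). Under the WT label no member was called by limma, edgeR or DESeq2, and limma called 0.788% of all genes. There 1 member had an unadjusted p under 0.05, as had 1995 of all 13457 genes. Myc was at 1.39 ± 0.52 under that label (adjusted p = 0.203, limma).

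The wider nucleolar machinery was set beside the members with lists of genes by role. In KO LD against UT PMN, 27 of 33 small subunit processome genes lay below 0 (median log2 -0.36), 32 of 41 large subunit assembly genes (-0.38), 8 of 10 further snoRNP proteins (-0.79) and 10 of 14 genes of the RNA polymerase I machinery (-0.21). None of these 98 genes was called by limma or edgeR, 12 had an unadjusted p under 0.05, and DESeq2 called 2, both of large subunit assembly. Over all 12971 genes in this comparison, 1321 had an unadjusted p under 0.05 and DESeq2 called 236. Of 77 cytosolic ribosomal protein genes tested (of 79), 75 lay below 0 with a median of -0.78, and 2 fell past the threshold. These were Rplp1, a protein of the ribosomal stalk (means of 436 in KO LD PMN and 1263 in KO UT PMN, log2 -1.55 ± 0.22, adjusted p = 0.00551, limma), and Rpl27a (log2 -1.54 ± 0.29, adjusted p = 0.0369). Of the 77 ribosomal protein genes, 52 had an unadjusted p under 0.05, edgeR called 1 and DESeq2 called 16. Many ribosomal protein genes have processed pseudogenes that can share their reads. Of 24 MYC targets that act outside the nucleolus, 18 lay below 0 (median -0.63), with no call by limma, edgeR or DESeq2 and 6 at an unadjusted p under 0.05. The MYC network genes had a median of -0.02, and none of the 11 tested was called by the 3 tools or had an unadjusted p under 0.05. The median of all genes was -0.07.

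**Figure D5:**
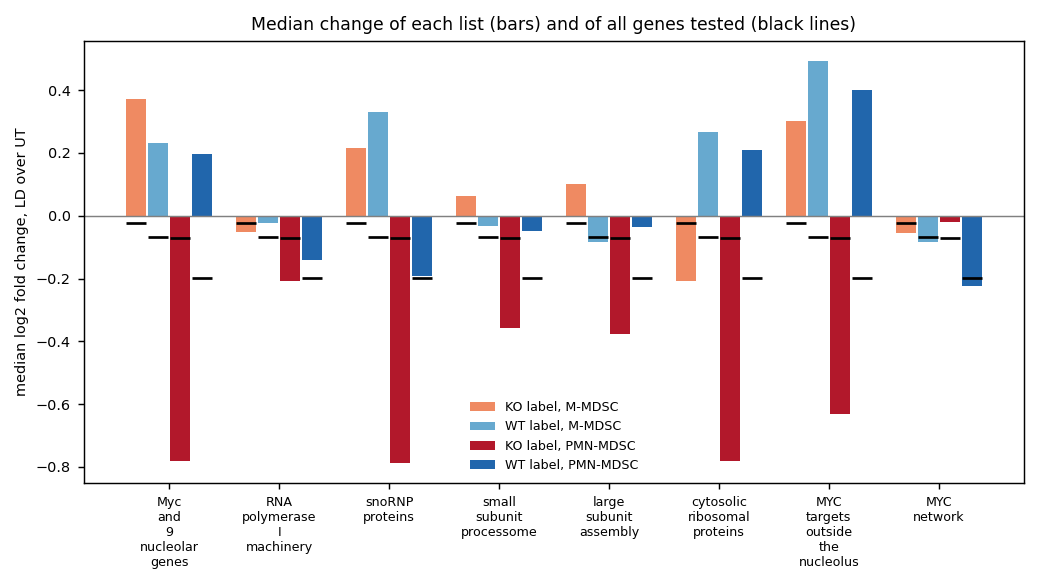
Median log2 fold change of lymphodepleted over untreated libraries for Myc and the 9 nucleolar genes and for 7 wider lists (bars, by genotype label and cell type), with the median of all genes tested as black lines. In KO-labelled PMN-MDSCs the bar of the 10 genes stands at -0.78, that of the ribosomal proteins at -0.78 and that of the MYC network at -0.02.

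In lymphodepleted M-MDSCs calls in both labels included MYC targets that act outside the nucleolus. Of 23 tested MYC targets outside the nucleolus, 10 rose and 1 fell in WT LD against UT M, where 9.52% of all genes were called higher and 8.82% lower. Tfrc, the transferrin receptor, rose by 2.70 ± 0.29 (adjusted p = 0.000104, limma), Shmt2, a mitochondrial serine hydroxymethyltransferase, by 1.59 ± 0.23, Ptma (prothymosin alpha) by 1.16 ± 0.17 and Cdk4, a cell cycle kinase, by 0.96 ± 0.21. In KO LD against UT M 3 of the 23 rose (Tfrc, Ptma and Ranbp1) and Ccnd2, a D-type cyclin, fell by 2.22 ± 0.23 (adjusted p = 0.000139, limma), where 6.11% of all genes were called higher and 5.52% lower. Mxd3, a MAX partner of the MYC network, rose in both labels, by 2.34 ± 0.55 under KO (adjusted p = 0.0144) and 4.43 ± 0.55 under WT (adjusted p = 0.000173). The small subunit processome had 1 gene called higher of 33 under the KO label (Mphosph10) and 1 lower under the WT label (Wdr3), both below the share of all genes.

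Between the cell types the lists followed the members in part. In KO LD 31 of 41 large subunit assembly genes, 23 of 33 small subunit processome genes, 9 of 10 snoRNP proteins and 74 of 77 ribosomal protein genes were called higher in M, against 23.8% of all genes. In WT UT the counts were 24 of 41, 18 of 33, 3 of 10 and 72 of 77, against 22.2% of all genes. Of the RNA polymerase I machinery, 6 of 14 were called higher and 2 lower in M in KO LD, and 3 higher and 3 lower in WT UT. Of the MYC network, 6 of 11 were called lower in M in KO LD and 6 of 11 in WT UT, against 23.6% and 28.3% of all genes called lower, and none was called higher. Mxd1, a MAX partner that represses MYC targets, averaged 502 in KO LD M and 20657 in KO LD PMN (log2 -5.40 ± 0.26, limma), and 415 in WT UT M and 27203 in WT UT PMN (log2 -6.03 ± 0.26). Polr1a, the largest subunit of RNA polymerase I, was also lower in M, by 1.58 ± 0.15 on the log2 scale in KO LD and by 2.11 ± 0.15 in WT UT. Its partner Polr1b lay higher in M, by 1.69 ± 0.46 in KO LD and 1.56 ± 0.46 in WT UT.

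Across the 24 libraries, the genes most like Myc among 7882 candidates, members left out, were Ppan (Pearson's r = 0.84), Cd8a (0.81), Nat10 (0.77), Slc5a3 (0.77) and Mdn1 (0.76). Ppan and Mdn1 act in large subunit assembly and Nat10 acetylates ribosomal RNA, while Cd8a is a T cell gene. Among the members Ncl was most like Myc, at 0.80. The T cell markers summed to 112 to 370 in KO LD M, 768 to 1236 in KO UT M, 58.6 to 96.5 in WT LD M and 195 to 305 in WT UT M. Their part in the likeness was not tested. The genes most like the mean of the 9 nucleolar members were Parp1 (0.98), Pitrm1 (0.97), Cluh (0.96), Eef1g (0.96) and Noc2l (0.96), and Myc stood at 0.68. These correlations describe libraries that fall into 2 cell types and 8 groups.

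Within the 12 M libraries, pooled over their groups, Myc correlated with 4 of the 9 nucleolar members. The strongest relation was with Nop58, with Pearson's r = 0.77 (adjusted permutation p = 0.0241) and Spearman's rho = 0.80 (adjusted permutation p = 0.0247). Pearson's r was 0.76 for Npm1, 0.74 for Ncl and 0.71 for Nop56, and 0.08 for Wdr43. The adjustment covers the 18 relations computed, 9 in each cell type. The permutations shuffled libraries across groups, so these p-values also take in differences between groups. Without the 2 libraries farthest from the median of Myc, r was 0.71 for Nop58, 0.72 for Npm1, 0.84 for Ncl and 0.88 for Nop56. For deviations from the group means, r was 0.74 for Nop58, 0.64 for Npm1, 0.69 for Ncl and 0.37 for Nop56. Over all 9 genes it ran from 0.04 to 0.74 in M, and no p-value was computed for deviations. In PMN-MDSCs the KO LD libraries stood apart in Myc. Pooled over groups, 3 of the 9 had an adjusted permutation p under 0.05 by Pearson's r, and 1 by Spearman's rho. The 3 were Ncl (r = 0.77), Wdr43 (0.73) and Fbl (0.73). Without KO LD PMN libraries 1 and 3, their r was 0.75, 0.80 and 0.72. For deviations from the group means it was 0.59, 0.31 and 0.19, and over the 9 genes it ran from -0.14 to 0.59 in PMN.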

How the data were processed

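Total RNA of sorted M-MDSCs and PMN-MDSCs was depleted of ribosomal RNA and sequenced in 24 libraries, 8 groups of 3 by the titles. The submitters' processing notes name mm10 as the build, with STAR 2.5.3a, HTSeq 0.6.1 and DESeq2 as tools. The sources used here give neither annotation nor strand setting. The signal values the authors deposited are normalized read counts, reads divided by 1 size factor per library, and multiplying by it returned whole reads (within 0.001) for all values above 0.

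The main test was limma 3.58.1 (R 4.3.3) with a variance trend on log2(normalized count + 1), for genes with at least 10 in at least 3 fitted libraries, with Benjamini-Hochberg adjustment over all genes and calls at 0.05. The M and the PMN libraries were fitted apart, 12 in each fit, and comparisons between cell types on all 24; whether M and PMN libraries share mice is not given. A fold change on this scale understates low genes. Counts of whole reads went into edgeR 4.0.16 and DESeq2 1.42.0 as alternative tools. Other alternatives changed the pseudocount to 0.5 or 5, dropped the filter, normalized by quantiles, blocked on replicate number, fitted all 24 libraries at once, or left out libraries. No 2 libraries of a group agreed within counting noise.

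The members and lists were chosen with earlier results of these data known. All 10 members are named, and from each list up to 4 called genes of smallest adjusted p, or up to 2 of highest level.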

Additional observations from a re-analysis of the deposited data

Results flagged for a closer look

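For Myc the lymphodepletion effect under the KO label differed between M-MDSCs and PMN-MDSCs: the difference of effects was 2.87 on the log2 scale (M minus PMN), past the threshold in the test of that difference (adjusted p = 0.0326, limma).

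For Fbl under the KO label the 3 lymphodepleted libraries were above the 3 untreated ones in M-MDSCs (442 to 475 against 265 to 405 normalized counts) and below them in PMN-MDSCs (17.3 to 65.0 against 86.5 to 162). The difference of effects was 2.43, with an adjusted p of 0.131 by limma. DESeq2 called it (adjusted p = 0.0289).

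For Nolc1 in PMN-MDSCs the 3 lymphodepleted libraries were below the 3 untreated ones under the KO label (72.2 to 126 against 158 to 263) and above them under the WT label (119 to 349 against 84.9 to 115). The difference of effects (KO minus WT) was -2.09, with an adjusted p of 0.567 by limma.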

How the results depend on the processing

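The alternatives were followed for 112 member results, which are not all 10 members in all 16 comparisons. Of the 112, 29 were called in the main analysis. Of the 29, 21 stayed called in every fit, all of them differences between M and PMN. Without the filter, calls were 0 of 10 in WT LD vs UT M and in KO LD vs UT M (1 each in the main analysis) and 3 in M vs PMN under KO UT (5). Quantile normalization gave 0 in WT LD vs UT M and 0 in KO LD vs UT PMN (1 each; Myc, adjusted p = 0.0511). edgeR gave 0 and DESeq2 gave 2 in KO LD vs UT M; DESeq2 also gave 1 in KO vs WT LD PMN (0) and 2 in cell type by treatment under KO (1). The fit of all 24 libraries gave 0 in WT LD vs UT M and KO LD vs UT M, 3 in KO LD vs UT PMN (Myc, Fbl and Nolc1) and 2 in KO vs WT LD PMN (Fbl and Myc). Without the 3 shallowest PMN libraries, a choice made after seeing the data, there were 0 in KO LD vs UT PMN and 3 in M vs PMN under KO UT.

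Without 1 library, members called ranged from 0 to 1 in WT LD vs UT M, 0 to 4 in KO LD vs UT M, 0 to 1 in KO LD vs UT PMN, 3 to 8 in M vs PMN under WT LD, 5 to 6 under WT UT, 10 to 10 under KO LD, 3 to 6 under KO UT, and 0 to 2 in cell type by treatment under KO; the other 8 comparisons gave 0 to 0. In WT LD vs UT M the 1 called was Ncl (higher) without WT LD M 1, and Wdr43 (lower) without WT LD M 2. The 4 in KO LD vs UT M were Ncl, Nop56, Nop58 and Npm1, all higher, without KO UT M 3. When 1 library is left out, the remaining group of 2 is assumed to vary like the others.

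Ncl in M vs PMN under WT UT (-0.01) reversed to 0.94 with quantile normalization (adjusted p = 0.00109), 0.10 with edgeR, 0.17 without the 3 shallowest libraries and 0.02, 0.05 and 0.17 without WT UT M 2, WT UT M 3 or WT UT PMN 3 (range without 1 library -0.13 to 0.17). Under KO UT (0.26) it was -0.022 without KO UT PMN 3 (range -0.022 to 0.42). The median of all genes in WT LD vs UT PMN was -0.20, and -0.02 with DESeq2, -0.00 with edgeR and -0.05 with quantile normalization. The cause of these shifts was not tested.

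Same-numbered libraries did not deviate together (r from -0.23 to 0.24, not over 0.1 for every pair in any comparison), so the numbers were not used as pairs; whether they mark shared mice is not given. With the replicate block, calls were 0 in WT LD vs UT M, KO LD vs UT M, KO LD vs UT PMN (Myc -2.54, adjusted p = 0.0523) and cell type by treatment under KO (Myc 2.87, adjusted p = 0.0501).

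Genes called overall also moved. In KO LD vs UT PMN the 29 became 236 with DESeq2, 325 in the fit of all 24 and 0 without the 3 shallowest. In KO vs WT LD PMN the 2 became 46, 111 and 0, and 5 with a pseudocount of 5. In cell type by treatment the 13 under KO became 98 with DESeq2 and 2 with the block, and the 106 under WT 342 with DESeq2, 61 with quantile normalization and 268 without the shallowest. In WT LD vs UT PMN the 1410 became 3491 in the fit of all 24 and 825 with quantile normalization. In LD vs UT M that fit gave 509 (1346) under KO and 815 (2122) under WT. In KO vs WT M, 24 under LD became 185 with DESeq2, 1 in the fit of all 24 and 8 with the block, and 466 under UT 1071, 36 and 269, and 249 without the filter. The PMN genotype-by-treatment count of 0 became 29 with DESeq2, 31 in the fit of all 24 and 1 with edgeR, a pseudocount of 5 or quantile normalization, and that of 1 in M became 71 with DESeq2, 2 with edgeR or a pseudocount of 5, and 0 in the fit of all 24, with quantile normalization or with the block. The 1 in KO vs WT UT PMN became 10 with DESeq2, 4 in the fit of all 24, and 0 with edgeR, no filter, a pseudocount of 0.5, the block or the shallowest left out. Depth limits Rrp9 and Polr1b most, at 1 to 202 reads.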
